A study of Mus musculus with 4 samples.

Results

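The genes examined were the ligands, receptors and 1 binding protein of the colony-stimulating factor 1, insulin-like growth factor 1 and TGF-beta systems. They are Csf1, Il34 and their receptor Csf1r, Igf1 with its receptor Igf1r and the binding protein Igfbp5, and Tgfb1, Tgfb2 and the receptor subunits Tgfbr1 and Tgfbr2. Each was taken by its symbol, and all 10 were found once among the 32285 genes of the count matrices. All 10 received at least 1 UMI (unique molecular identifier, counted as 1 RNA molecule) in every library, and none was used to sort nuclei into cell classes.

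Nuclei came from cerebral cortical tissue of GCLC-KO mice (labelled Gclc-KO), in which floxed Gclc was deleted with CaMKII-Cre, a driver active in forebrain neurons. Gclc encodes the catalytic subunit of the enzyme that begins glutathione synthesis. DAPI-positive singlet nuclei were sorted, and libraries were made with a 10x 3′ kit from 2 mice aged 3 months (named 3M-1, 3M-2) and 2 aged 6 months (6M-1, 6M-2). Wherever 4 values are listed, the 3-month mice come first, each age in the order of its numbers. Each library was 1 untreated mouse, the cortical regions were chosen by the study for their abundant rod-shaped microglia, all 4 mice carried the deletion and no wild-type library was analysed, so every value below describes knockout tissue.

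CSF1R is the tyrosine kinase receptor on which microglia depend for survival, and CSF1 and IL-34 are its ligands. IGF1 is a growth and survival factor that binds the tyrosine kinase IGF1R, and IGFBP5 is a secreted protein that binds IGF1. TGF-beta ligands are secreted in a latent form and, once released, join the TGFBR2 and TGFBR1 serine/threonine kinases, which phosphorylate SMAD proteins. TGF-beta signalling is known to hold adult microglia in their homeostatic state, and disease-associated microglia (DAM) are the activated state defined by genes such as Itgax, Cst7 and Lpl.

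The filter of the study (no more than 7000 genes detected, no more than 1% of UMIs mitochondrial) left 30515 nuclei. The 4 libraries held between 59262228 and 65894316 UMIs, with medians of 5994 to 8140 UMIs per nucleus. Nuclei were gated by marker genes, which assigned 21699 to 6 main classes and left 8656 (28.4%) ungated. Microglia numbered 463, 385, 737 and 580 nuclei in the 4 mice, and their 12 markers summed to 8092 to 11902 CPM (counts per 1000000, the UMIs of the genes relative to all UMIs of the class) there. Astrocytes were few, at 36 to 65 nuclei per library, so their values rest on small counts. Gclc itself was at 35.1 to 43.5 CPM over all nuclei of the 4 libraries, which checks nothing, since there was no wild type and the 3′ tags need not lie in the deleted part. Pairs of libraries shared 12 to 19 barcodes.

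In the plots and tests that follow, the UMIs of each class were added up within a mouse. The quasi-likelihood test of edgeR, adjusted after Benjamini and Hochberg across the genes tested, gave log2 differences ± SE and adjusted p-values. A gene was called at an adjusted p under 0.05. Levels in CPM were compared between classes and mice for 1 gene at a time, never between genes. Intervals on counts cover counting error only.

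The upstream windows of Csf1 and Tgfbr2 are shown because both genes were higher in DAM-gated microglia than in the other microglia of the same mouse (described below with Igf1). They are the 250 bases before the annotated start in RefSeq (GRCm38.p6), read 5′ to 3′ on the strand of the gene. Csf1 lies on chromosome 3 (chr3:107741048-107760469, reverse strand), and the window is chr3:107760470-107760719. Tgfbr2 lies on chromosome 9 (chr9:116084293-116175360, reverse strand), and the window is chr9:116175364-116175613. Capitals mark GC boxes (GGGCGG) and matches to an NF-kB type motif in Csf1, and an ETS core (GAGGAA) in Tgfbr2, searched on both strands.
Csf1: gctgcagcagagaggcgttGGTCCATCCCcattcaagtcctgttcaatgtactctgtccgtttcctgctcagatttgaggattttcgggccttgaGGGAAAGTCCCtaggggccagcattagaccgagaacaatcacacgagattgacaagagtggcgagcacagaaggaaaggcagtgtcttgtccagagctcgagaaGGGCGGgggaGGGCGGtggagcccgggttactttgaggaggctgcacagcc
Tgfbr2: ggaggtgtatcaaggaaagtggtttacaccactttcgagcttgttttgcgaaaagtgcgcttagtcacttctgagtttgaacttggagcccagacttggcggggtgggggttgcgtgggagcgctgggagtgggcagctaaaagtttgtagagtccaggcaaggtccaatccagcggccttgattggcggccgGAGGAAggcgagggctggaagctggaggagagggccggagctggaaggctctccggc
The Csf1 window was 56.4% G and C, with 2 GC boxes at −51 to −46 and −41 to −36 and 3 NF-kB type matches at −231 to −222, −155 to −146 and −154 to −145, of which the last 2 overlap on opposite strands. The Tgfbr2 window was 58.4% G and C, with the ETS core at −57 to −52 and none of the other 2 motifs. These motifs are common: 32.7% of 32851 promoter windows of the same length held a GC box, 17.6% an NF-kB type match and 23.3% an ETS core. An AP-1 motif (TGANTCA, in 6.75% of windows) was also searched and was in neither.

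The 10 genes fell into a few patterns over the cell classes. Csf1r, Tgfb1, Tgfbr1 and Tgfbr2 were highest in microglia, Csf1 in oligodendrocytes and microglia, Igf1 in inhibitory neurons with a lower level in microglia, Il34 in neurons, Tgfb2 in astrocytes and oligodendrocyte precursors (OPC), Igfbp5 in astrocytes, and Igf1r was broad. Against the mean of the other 5 classes, 9 of the 10 members were called in microglia, where 60.3% of all 14692 genes tested were. The members called were 7 in excitatory neurons (64.4% of all genes), 6 in inhibitory neurons (56.5%), 4 in oligodendrocytes (56.4%), 4 in OPC (33.4%) and 3 in astrocytes (27.3%), shares near those of all genes. Csf1r and Igf1 had 0 UMIs in every astrocyte sum, which left some of their differences without a usable estimate. In excitatory neurons their SE on the log2 scale was 24.2 and 24.7, and in OPC 6.21 and 183. They could hardly be called there, so these counts understate what the 10 members could show.

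**Figure D1:**
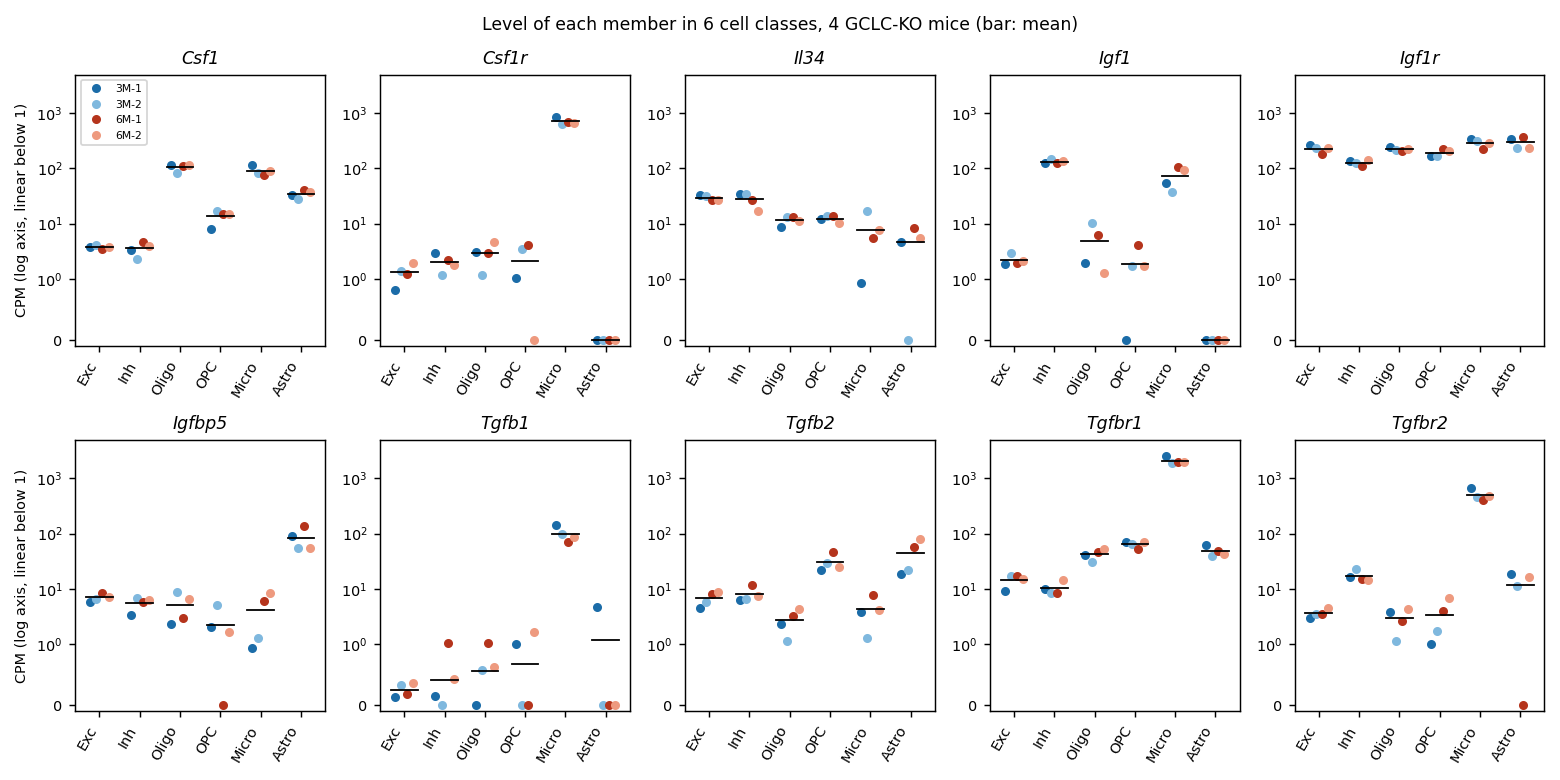
Level of each gene in CPM (y axis, logarithmic, linear below 1) in excitatory neurons, inhibitory neurons, oligodendrocytes, OPC, microglia and astrocytes (x axis). Each point is 1 of 4 mice and the bar their mean. Csf1r in microglia lies between 646 and 838 CPM and no astrocyte sum holds a Csf1r UMI.

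Csf1, the secreted ligand, was at 113.7, 81.8, 111.3 and 113.7 CPM in oligodendrocytes (105 ± 15.6, SD, n = 4). In microglia it was at 115.9, 81.7, 75.3 and 90.7 CPM (90.9 ± 17.8), so the ranges of these classes overlapped. Astrocytes followed at 27.8 to 41.0 CPM and OPC at 8.11 to 16.9 CPM, each below the class before it in every mouse. Excitatory neurons (3.79 ± 0.24) and inhibitory neurons (3.55 ± 0.97) were lowest and overlapped. Against the mean of the other classes Csf1 was higher in oligodendrocytes by 3.04 ± 0.10 on the log2 scale (adjusted p = 9.17e-20) and in microglia by 2.32 ± 0.12 (adjusted p = 2.42e-15). Oligodendrocytes held 28.1 to 43.2% of the Csf1 UMIs of a library, microglia 12.4 to 17.1% and the numerous excitatory neurons 11.3 to 30.5%. Csf1 UMIs per Csf1r UMI were 24.1 to 71.5 in oligodendrocytes, from 36 Csf1r UMIs in all, and 0.109 to 0.138 in microglia. A ratio above that of microglia was not particular to oligodendrocytes. It was 1.94 to 4.65 in excitatory neurons, 1.17 to 2.25 in inhibitory neurons and 3.67 to 8.0 in OPC, from 6 Csf1r UMIs in all.

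Il34, the second CSF1R ligand, differed from Csf1 in being neuronal. Its level was 32.8, 31.5, 26.5 and 26.6 CPM in excitatory and 34.2, 34.7, 26.6 and 16.8 CPM in inhibitory neurons. These ranges overlapped, and both lay above OPC (12.3 ± 1.63), oligodendrocytes (11.6 ± 2.09) and astrocytes (4.58 ± 3.41). Microglia (7.73 ± 6.68) lay below excitatory neurons, but their highest value, in 3M-2, reached the lowest of inhibitory neurons, in 6M-2. The non-neuronal classes overlapped in turn, each with the next in the order of means. Il34 was called higher in excitatory neurons (log2 1.78 ± 0.17, adjusted p = 1.12e-09) and in inhibitory neurons (1.47 ± 0.20, adjusted p = 5.39e-07). The gene lies at chr8:110741829-110805924 on the reverse strand, where the annotation places the antisense genes Gm15894 and Gm15895 within it.

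Neurons were divided further by marker gates. Sst interneurons, the somatostatin class, had the highest mean Il34 among them, at 68.3, 83.1, 49.9 and 29.9 CPM, against 0 to 15.9 CPM in Vip, 5.48 to 25.1 CPM in Pvalb and 17.6 to 27.8 CPM in Lamp5 interneurons. Il34 was higher in Sst than in the mean of the other 3 interneuron gates by 2.00 ± 0.17 (log2, adjusted p = 1.36e-09), in a comparison that was added after the levels had been seen. Among excitatory gates it was highest in layer 4/5, at 40.6, 35.3, 32.4 and 32.0 CPM (in 6M-2 above the 29.9 CPM of Sst), and 0.54 ± 0.07 above the mean of the others (log2, adjusted p = 9.52e-06). All 4 layer 4/5 values lay above the 26.1 to 31.6 CPM of layer 2/3, and the ranges of the gates of layer 6 corticothalamic and near-projecting neurons were lower.

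Il34 was also found in vessel-associated nuclei, which were few. Mural cells, the contractile cells of vessels, had 52 Il34 UMIs in 26 of 45 nuclei, or 718 CPM (95% exact Poisson interval 536 to 942). Fibroblasts had 22 UMIs in 9 of 15 nuclei (623 CPM, 390 to 943). Endothelial nuclei had none in 17 nuclei (interval up to 134 CPM). The counts were pooled over mice, so no test was made.

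Csf1r, the receptor on chromosome 18, was at 838, 646, 688 and 670 CPM in microglia (711 ± 86.9). All other main classes were at or below 4.71 CPM and astrocytes had 0 UMIs in every mouse, as OPC had in 6M-2. Each of these classes overlapped the next in the order of means except excitatory neurons and astrocytes. Pooled over the 4 mice, the microglial level was at least 165-fold higher than that of astrocytes, taking 3 counts over all libraries as the floor, and the gene was called in microglia (adjusted p = 6.5e-24). Microglia held 66.8 to 79.6% of its UMIs. Border macrophages, the related cells along vessels and meninges, had 53 Csf1r UMIs in 24 of 30 nuclei, or 781 CPM (585 to 1022), so their interval included the microglial level.

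Of the other genes of the CSF1 receptor pathway, 14 of 15 were tested. In microglia, where 60.3% of all genes were called, 13 were called higher and 1 lower, with a median log2 difference of 5.77. Among those with the smallest p were Inpp5d, a lipid phosphatase, Plcg2, a phospholipase, and the transcription factors Irf8 and Spi1. Irf8 averaged 289 CPM in microglia and at most 2.05 CPM in any other class, and Spi1 averaged 223 CPM against at most 2.78 CPM. Inpp5d is also a marker of the microglia gate, so its call is not independent. The gene called lower was Ptprz1, which encodes a phosphatase that can bind IL-34 and averaged 2356 CPM in OPC, 1485 CPM in astrocytes and 35.8 CPM in microglia.

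**Figure D2:**
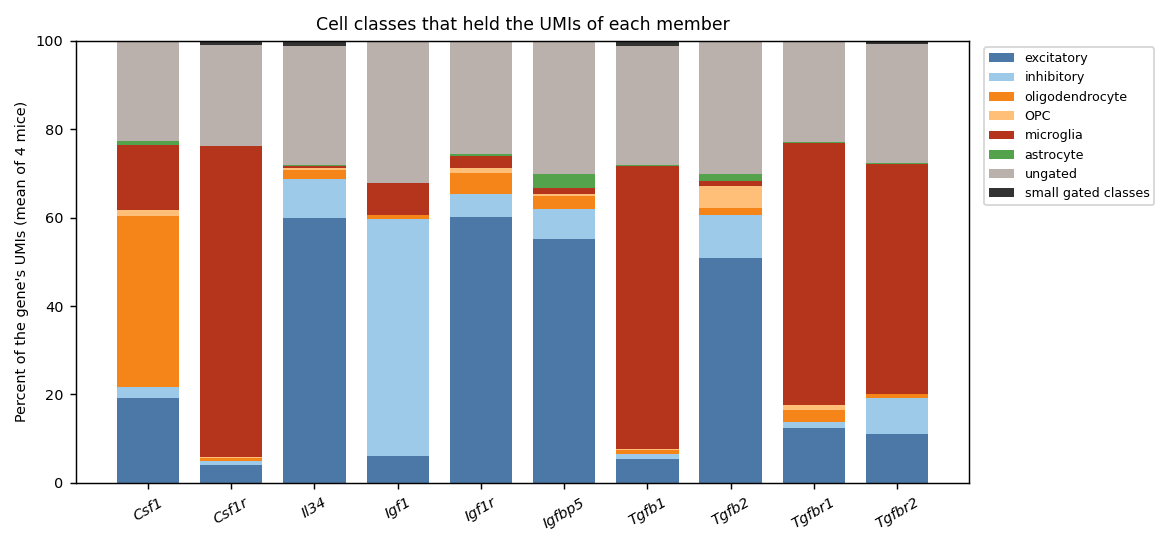
Share of the UMIs of each gene (y axis, percent, mean of 4 mice) that came from each cell class, from ungated nuclei and from the small gated classes. Microglia hold the largest share for Csf1r, Tgfb1, Tgfbr1 and Tgfbr2, inhibitory neurons for Igf1, and oligodendrocytes for Csf1.

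Igf1 (chr10:87858265-87937042, forward strand) was at 122.6, 145.1, 126.3 and 133.8 CPM in inhibitory neurons (132 ± 9.91) and at 54.2, 37.6, 103.8 and 93.5 CPM in microglia (72.3 ± 31.5). The inhibitory range lay above the microglial one, and both above oligodendrocytes (1.26 to 10.3), excitatory neurons (1.88 to 2.87) and OPC (0 to 4.03). Astrocytes had 0 UMIs. Over this astrocyte floor of 3 counts the pooled level was at least 30.4-fold higher in inhibitory neurons and at least 18.7-fold higher in microglia, and both were called (adjusted p = 4.15e-15 and 2.56e-10). The antisense gene Igf1os overlaps Igf1, and the strand setting of the counting was not given in the sources used here, so reads of the pair may not be fully separated.

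The inhibitory signal was concentrated in Vip interneurons, which express vasoactive intestinal peptide. They were at 585, 551, 559 and 535 CPM, a narrow range in all 4 mice, followed without overlap by Lamp5 interneurons at 178, 232, 209 and 181 CPM and Sst interneurons at 45.8, 67.9, 86.0 and 52.1 CPM. Pvalb interneurons, the fast-spiking class, had 33.5, 12.5, 5.80 and 9.13 CPM. Against the mean of the other gates Igf1 was higher in Vip by 3.39 ± 0.14 (log2, adjusted p = 4.7e-16) and in Lamp5 by 1.25 ± 0.16 (adjusted p = 6.82e-07), and lower in Pvalb, where the difference was −3.74 ± 0.24 (adjusted p = 3.63e-12). Although Vip nuclei were only 63 to 82 per library, they held 16.9 to 32.3% of all Igf1 UMIs.

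Because Igf1 is abundant in interneurons, its microglial UMIs were set beside the 6 inhibitory markers. Igf1 UMIs per UMI of that list were 0.806 to 1.93 in microglia and 0.118 to 0.124 in inhibitory neurons, so the ratio in microglia was higher in every mouse. In excitatory neurons it was 0.174 to 0.310, also above the inhibitory neurons in every mouse, and in oligodendrocytes 0.0272 to 0.228. No ratio was taken for Vip interneurons, where Igf1 was highest. The part of free RNA in these values was not tested. Border macrophages had 17 Igf1 UMIs in 11 of 30 nuclei (251 CPM, interval 146 to 401).

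Igf1r (chr7:67952827-68233668, forward strand) was the most evenly spread member. It was at 340, 234, 369 and 238 CPM in astrocytes, 340, 311, 228 and 289 CPM in microglia and 260, 235, 181 and 229 CPM in excitatory neurons. Oligodendrocytes (221 ± 12.9) and OPC (190 ± 29.0) came next, and each of these neighbours overlapped. Inhibitory neurons, at 134, 123, 109 and 140 CPM, lay below all other classes, by −0.86 ± 0.11 against their mean (log2, adjusted p = 2.06e-07). The fitted excess in excitatory neurons was 0.36 ± 0.10 (adjusted p = 0.0023, and 0.0534 with a stricter gate). Their mean of 226 CPM was, however, below the 292 CPM of microglia, which were not called (0.21 ± 0.11, adjusted p = 0.097). The fits scale the sums by TMM and the CPM values do not, and the part of this scaling in the excess was not tested. The excess in astrocytes was 0.39 ± 0.14 (adjusted p = 0.043, and 0.201 without the filter on low counts, 0.202 without 6M-1, 0.189 without 3M-1 and 0.0749 without 3M-2).

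Excitatory gates also differed in Igf1r. Layer 2/3 neurons were at 374, 315, 220 and 292 CPM and layer 6 corticothalamic neurons at 345, 304, 256 and 305 CPM, against 182, 161, 126 and 158 CPM in layer 4/5. The log2 differences from the mean of the other gates were 0.59 ± 0.05, 0.54 ± 0.05 and −0.69 ± 0.05 (adjusted p at most 1.02e-08). Vip interneurons, the gate highest in Igf1, were also above the other interneurons in Igf1r, by 0.56 ± 0.10 (adjusted p = 7.15e-05), at 133 to 221 CPM. The highest level of all was in the 17 endothelial nuclei, every one of which held an Igf1r UMI, with 78 UMIs in all (2830 CPM, interval 2237 to 3532).

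Igfbp5 (chr1:72857932-72874884, reverse strand) was at 89.6, 55.7, 139.4 and 54.2 CPM in astrocytes, from 10 to 19 UMIs per mouse, and was called there (log2 4.07 ± 0.40, adjusted p = 4.72e-09). The other classes averaged 2.20 to 6.98 CPM, with ranges that overlapped from each to the next. Among excitatory gates the near-projecting gate of layers 5 and 6 was highest at 14.1 ± 2.45 CPM (log2 1.17 ± 0.20 above the others, adjusted p = 0.000285, and 0.212 with a stricter gate). Interneurons were not part of that test, and the Vip gate reached a similar level.

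Of the 18 other genes of the insulin-like growth factor pathway, 14 were tested. In microglia, where 60.3% of all genes were called, 3 were called higher and 5 lower, with a median of −0.48. In inhibitory neurons (56.5% of all genes) 7 were higher and 5 lower. The microglial calls with the smallest p were Irs1, the insulin receptor substrate (4.88 CPM against 22.0 to 51.7 CPM in the other classes), Foxo3, a transcription factor restrained by this pathway (128 CPM), Igf2r, Insr and Grb10. Insr, the insulin receptor, averaged 184 CPM in microglia and 90.5 CPM in excitatory neurons. In astrocytes, where 27.3% of all genes were called, the 3 called genes were all higher and were Foxo1, Foxo3 and Igfbp2. The microglial and astrocyte counts were near the shares of all genes.

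Tgfb1 (chr7:25687002-25705077, forward strand) was at 143.9, 98.5, 69.7 and 86.6 CPM in microglia (99.7 ± 31.8), from 76 to 154 UMIs per mouse. Every other main class had at most 7 UMIs in a mouse except excitatory neurons with 5 to 13, and the averages there were 0.257 to 1.18 CPM. It was called in microglia (adjusted p = 3.6e-19), which held 56.5 to 79.0% of its UMIs.

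Tgfb2 (chr1:186622792-186705989, reverse strand) had the opposite distribution. Astrocytes were at 18.9, 22.3, 57.4 and 81.2 CPM, from 4 to 15 UMIs each, and OPC at 22.3, 28.8, 47.0 and 25.1 CPM, so these classes overlapped. Both were called (astrocytes 2.45 ± 0.36, adjusted p = 4.32e-06, and OPC 1.91 ± 0.22, adjusted p = 8.3e-08), and microglia were called lower (−1.66 ± 0.29, adjusted p = 1.57e-05, 4.24 ± 2.69 CPM). Inhibitory and excitatory neurons were at 6.26 to 12.0 and 4.42 to 8.82 CPM. Within excitatory neurons, layer 6 corticothalamic nuclei were highest, at 6.40, 7.32, 14.5 and 13.5 CPM (log2 1.11 ± 0.14 above the other gates, adjusted p = 2.03e-06, and 0.0758 with a stricter gate).

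Tgfbr1 (chr4:47353222-47414931, forward strand), the signalling subunit, was at 2527, 1868, 1959 and 2025 CPM in microglia (2095 ± 295). OPC (64.3 ± 8.38), astrocytes (48.2 ± 9.69) and oligodendrocytes (42.3 ± 9.58) followed and overlapped, above excitatory (14.5 ± 3.60) and inhibitory neurons (10.4 ± 2.89). The microglial difference was 5.88 ± 0.11 (log2, adjusted p = 6.5e-25). Among excitatory gates 1 stood apart: layer 4/5 was at 19.6, 40.6, 34.3 and 36.4 CPM, while layer 2/3 was at 0.99 to 5.28 CPM and layer 6 corticothalamic neurons at 5.05 to 6.24 CPM. The layer 4/5 excess was 2.61 ± 0.15 (log2, adjusted p = 3.61e-10). Near-projecting neurons came closest to it and were not called (0.28 ± 0.25 against the mean of the other gates, adjusted p = 0.49). Tgfbr1 UMIs per Csf1r UMI were 14.2 to 31.6 in layer 4/5, from 55 Csf1r UMIs in all, and 2.85 to 3.02 in microglia. A ratio above that of microglia was not particular to layer 4/5. It was 7.70 to 13.6 in all excitatory neurons, 3.44 to 8.38 in inhibitory neurons and 11.3 to 26.5 in oligodendrocytes.

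Tgfbr2, the ligand-binding subunit, was at 671, 451, 407 and 473 CPM in microglia (500.5 ± 117), with a difference of 6.07 ± 0.13 (log2, adjusted p = 6.7e-24). Inhibitory neurons came next at 16.1, 22.8, 15.2 and 14.6 CPM and overlapped with astrocytes (0 to 18.9), and the remaining classes averaged 3.01 to 3.61 CPM. Pvalb interneurons accounted for the highest neuronal level, at 35.2, 62.7, 34.8 and 36.5 CPM (log2 2.25 ± 0.23 above the other interneuron gates, adjusted p = 1.74e-08). The subunits thus peaked in different neurons, Tgfbr1 in layer 4/5 and Tgfbr2 in Pvalb interneurons. In layer 6 corticothalamic neurons Tgfbr2 was at 5.95 to 7.81 CPM (1.55 ± 0.19 above the other excitatory gates, adjusted p = 1.75e-06).

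**Figure D3:**
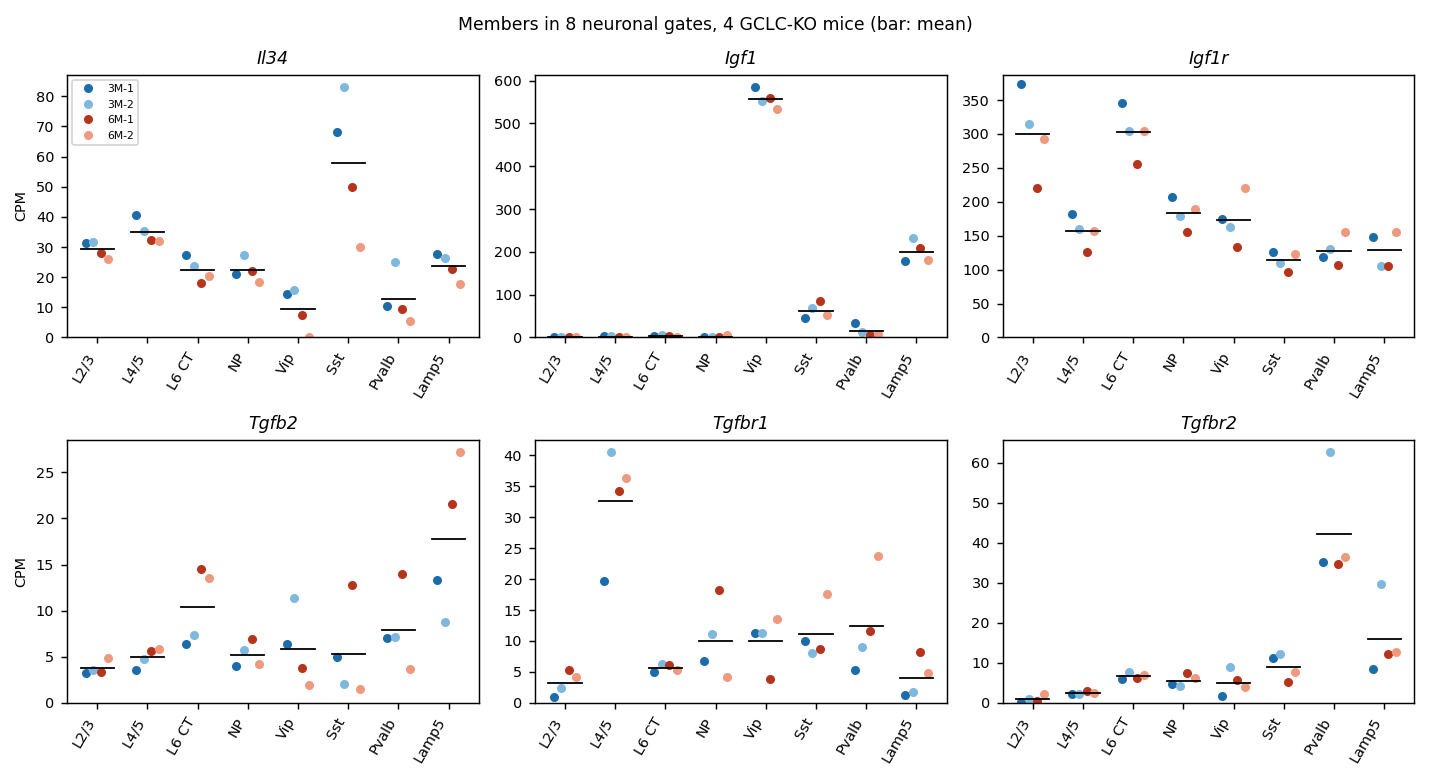
Levels of 6 genes in CPM (y axis, linear) in 4 excitatory gates (layer 2/3, layer 4/5, layer 6 corticothalamic, near-projecting) and 4 interneuron gates (Vip, Sst, Pvalb, Lamp5). Each point is 1 of 4 mice and the bar the mean. Igf1 in Vip lies between 535 and 585 CPM, above every other gate, while Il34 peaks in Sst, Tgfbr1 in layer 4/5 and Tgfbr2 in Pvalb.

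Over the neuronal gates the members called were 7 of 9 tested in layer 2/3 (31.7% of all genes), 4 of 9 in layer 4/5 (20.6%), 7 of 9 in layer 6 corticothalamic (31.4%) and 4 of 9 in near-projecting neurons (21.3%). Among interneurons they were 4 of 4 in Vip (24.9%), 3 of 4 in Sst (17.6%), 3 of 4 in Pvalb (32.9%) and 1 of 4 in Lamp5 (25.6%). A stricter gate left 4 of the 8 gates with enough nuclei, where 7 of 20 member tests were called in place of 33 of 52.

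Of the 27 other TGF-beta pathway genes, 21 were tested. In microglia, where 60.3% of all genes were called, 15 were called higher and 6 lower, with a median of 1.16. Nrros, which anchors latent TGF-beta1 on microglia, averaged 185 CPM in microglia, 46.3 CPM in astrocytes and at most 4.53 CPM elsewhere. The others with the smallest p were Skil, Ski, Tgif1 and Smad7, which restrain SMAD signalling. Smad7, a SMAD target and inhibitor, averaged 300 CPM in microglia and 566 CPM in oligodendrocytes. Itgb8 and Ltbp1, whose products release and store latent TGF-beta, were called lower in microglia and higher in OPC, where they averaged 88.9 and 142 CPM against 5.25 and 4.35 CPM in microglia.

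Microglia were split by the DAM genes, a nucleus with UMIs of at least 2 of 10 being called DAM-gated. These were 77, 37, 118 and 101 nuclei, or 16.6, 9.61, 16.0 and 17.4% of microglia. Csf1, Igf1 and Tgfbr2 were higher in DAM-gated than in other microglia of the same mouse in 4 of 4 mice and were called. Igf1r and Tgfbr1 (each also higher in 4 of 4 mice), Csf1r (lower in 4 of 4 mice) and Tgfb1 did not pass the test. The study picked a DAM-like marker list on these samples that holds Csf1, Igf1 and Tgfbr2, so their direction here is not independent evidence. Of the 7 members tested 3 were called, all higher, where 7.93% of 8500 genes were called and 3.98% were called higher.

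Csf1 was at 366.5, 408.9, 155.4 and 305.3 CPM in DAM-gated and 52.7, 34.2, 57.8 and 39.2 CPM in other microglia. The DAM-gated values were above the others without overlap, by 6.96, 12.0, 2.69 and 7.79 times within a mouse, and 6M-1 gave the smallest ratio. The difference was 2.56 ± 0.24 (log2, adjusted p = 1.52e-06), and 1.87 when 1 DAM gene sufficed. DAM-gated nuclei thus held 63.7, 63.5, 37.0 and 65.2% of all microglial Csf1 UMIs.

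Igf1 was at 180.9, 184.0, 276.7 and 237.9 CPM in DAM-gated and 22.2, 16.3, 66.0 and 58.8 CPM in other microglia. Again no values overlapped, with ratios of 8.14, 11.3, 4.19 and 4.04. The difference was 2.35 ± 0.21 (log2, adjusted p = 8.87e-07). When microglia were thinned to 1000 UMIs each and gated again it was 1.39 (adjusted p = 0.0177), a smaller but still called value. DAM-gated nuclei were deeper, with median UMIs of 2086.5 to 2709 against 1477 to 2133.

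Tgfbr2 was at 1118, 726, 634 and 707 CPM in DAM-gated and 558, 411, 357 and 417 CPM in other microglia, with ratios of 2.00, 1.77, 1.78 and 1.69. Its difference of 0.83 ± 0.11 (log2, adjusted p = 6.64e-05) was smaller than those of the ligands but similar in each mouse, and without the mouse as a block it did not pass (adjusted p = 0.0872). Csf1r was at 612, 583, 665 and 543 CPM against 895, 655, 694 and 701 CPM. Its difference of −0.32 ± 0.11 did not pass (adjusted p = 0.11), but did with the doublet calls left out (−0.43, adjusted p = 0.00737) and without the filter on low counts (−0.39, adjusted p = 0.0311).

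Tgfb1 was at 143.8, 163.6, 62.2 and 117.2 CPM in DAM-gated and 144.0, 89.1, 71.4 and 79.3 CPM in other microglia, so it was higher in 2 of 4 mice (log2 0.24 ± 0.20, adjusted p = 0.57). Tgfbr1 was at 2126 to 2561 against 1831 to 2519 CPM (0.24 ± 0.10, adjusted p = 0.18), and Igf1r at 309 to 362 against 205 to 335 CPM (0.24 ± 0.13, adjusted p = 0.34). Within a mouse the ratios were 1.02 to 1.35 for Tgfbr1 and 1.06 to 1.60 for Igf1r. Il34, Igfbp5 and Tgfb2 were too low to be tested, with 5, 1 and 13 UMIs over all DAM-gated nuclei.

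**Figure D4:**
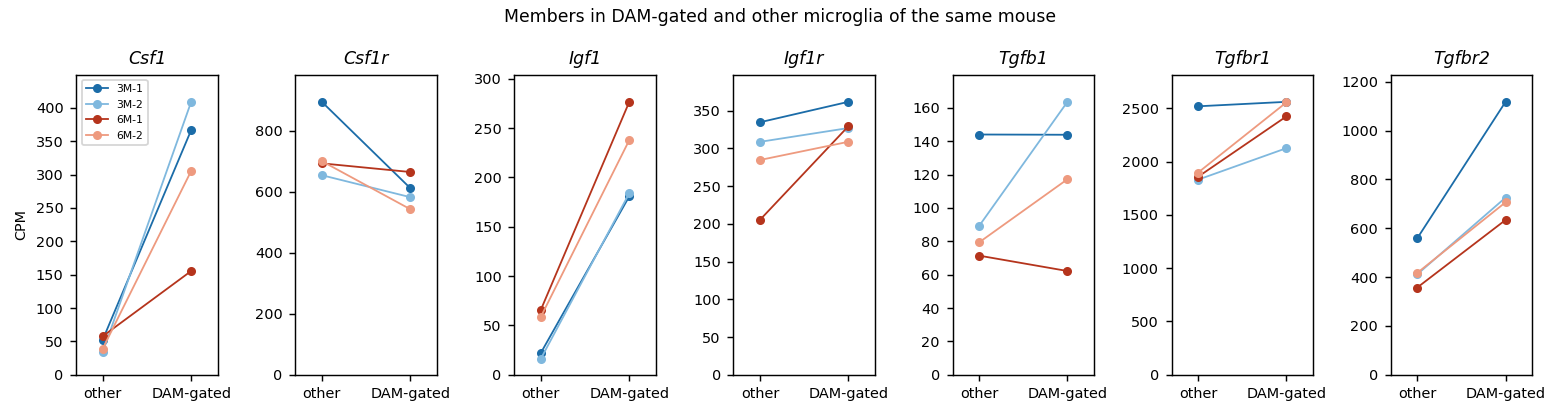
CPM (y axis, linear from 0) of the 7 members tested in other microglia and DAM-gated microglia (x axis), with a line joining the values of the same mouse. The lines of Csf1, Igf1 and Tgfbr2 rise in all 4 mice, as do those of Igf1r and Tgfbr1, which did not pass the test. Those of Csf1r, which did not pass either, point down.

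Markers of other cells were compared in the same nuclei. The 8 endothelial markers summed to 71.6 to 192 CPM in DAM-gated and 46.0 to 72.7 CPM in other microglia, with 3 to 7 of 8 at 0 in DAM-gated. The 7 border macrophage markers summed to 0 to 37.3 CPM in DAM-gated, with 4 to 7 of them at 0, and to 5.94 to 18.8 CPM in other microglia. The 6 inhibitory markers summed to 18.6 to 81.8 CPM in DAM-gated and 30.4 to 75.5 CPM in other microglia. Igf1 UMIs per UMI of that list were 2.25 to 9.75 in DAM-gated nuclei. The 9 oligodendrocyte markers summed to 83.5 to 194 CPM in DAM-gated and 75.7 to 124 CPM in other microglia. For the 6 OPC markers the ranges were 20.4 to 68.4 and 15.2 to 32.7 CPM, and for the 9 astrocyte markers 20.4 to 49.7 and 25.2 to 65.3 CPM. The part of endothelial or other foreign RNA in the DAM-gated differences was not tested.

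Pathway genes called were 1 of 14 in the CSF1 receptor list and 3 of 12 in the TGF-beta list, all higher in DAM-gated nuclei. In the insulin-like growth factor list 0 of 5 were called, and of all genes 7.93% were. The medians of the lists, in that order, were 0.11, 0.26 and −0.07 on the log2 scale. The genes called were Irf8 (0.45 ± 0.13, adjusted p = 0.038), Nrros (0.80 ± 0.14, adjusted p = 0.0012, 289 against 163 CPM), Tgif1 (0.97 ± 0.26, adjusted p = 0.025) and Smad7 (0.41 ± 0.12, adjusted p = 0.039). Nrros anchors latent TGF-beta1, while Tgif1 and Smad7 encode inhibitors of SMAD signalling.

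The ages were compared within each of 16 classes and gates, 2 mice against 2. None of the 98 member tests was called. Over all genes the share called was 0.147% in Vip, 0.0108% in OPC and 0.0078% in oligodendrocytes, and 0% in the other 13, so the count of members is near the background. At an unadjusted p under 0.05 there were 12 member tests, 8 of them higher at 6 months, while 158 to 1069 genes per class and 5.45% of all gene tests reached that limit. Some of these classes lie within others.

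Igf1 in other microglia had the smallest p of these. It was at 22.2 and 16.3 CPM at 3 months and at 66.0 and 58.8 CPM at 6 months, ratios of 2.97 in batch 1 and 3.60 in batch 2. The log2 difference was 1.67 ± 0.30 (adjusted p = 0.52 over 11277 genes, of which none was called). It passed without the filter on low counts (adjusted p = 0.00201) and without doublet calls (0.0303), and not under a block of batch (0.741). Over 10 alternatives the difference ranged from 1.48 to 1.97. A fit without 1 library leaves 1 mouse at that age, so only effect sizes of such fits are given for single genes by age. In all microglia the difference was 1.08 ± 0.25 (adjusted p = 0.79, and 0.0351 without the filter) and in DAM-gated nuclei 0.53 ± 0.27 (adjusted p = 0.80).

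The Igf1 UMIs of other microglia per UMI of the inhibitory markers were 0.731, 0.393, 0.874 and 1.00, higher at 6 months in both batches and above the inhibitory neurons in every mouse. This ratio was 1.93, 0.806, 1.46 and 1.79 in all microglia and 9.75, 2.25, 5.56 and 9.57 in DAM-gated nuclei. In these it was lower at 6 months in batch 1 and higher in batch 2. After thinning each nucleus to 1000 UMIs, Igf1 was found in 3.23, 2.61, 8.77 and 7.54% of microglia (6.48, 3.90, 13.7 and 12.8% before thinning) and in 0 astrocytes, whose median depth was 2643 to 4212 UMIs against 1532 to 2243 in microglia. Thinning left out 29, 78, 30 and 10 microglia below 1000 UMIs. The mean share was 5.24 points higher at 6 months (two-sided exact permutation test, p = 0.333, the smallest that 2 mice against 2 can give). In inhibitory neurons Igf1 was at 122.6 and 145.1 CPM at 3 months and 126.3 and 133.8 CPM at 6 months, so the ages overlapped. The test of the difference between microglia and inhibitory neurons in their age effect gave 1.17 ± 0.29 (adjusted p = 0.83). Over 7 alternatives this estimate ranged from 0.76 to 1.95.

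Tgfb2 was higher at 6 months in several classes, without a call. In layer 6 corticothalamic neurons it was at 6.40 and 7.32 CPM at 3 months and 14.5 and 13.5 CPM at 6 months, with 57 to 149 UMIs per mouse (1.04 ± 0.23, adjusted p = 0.52, ratios of 2.26 and 1.85 in the batches). In excitatory neurons as a whole the values were 4.42, 5.80, 8.17 and 8.82 CPM (0.72 ± 0.23, adjusted p = 0.83), and in astrocytes 18.9, 22.3, 57.4 and 81.2 CPM (1.73 ± 0.77, adjusted p = 0.998). Layer 6 corticothalamic neurons are part of the excitatory class, so those comparisons share nuclei. Layer 2/3 nuclei, also part of that class, were 7.64 and 8.24% of all kept nuclei at 3 months and 3.60 and 3.27% at 6 months. Their Tgfb2 was below the mean of the other excitatory gates (log2 −0.68 ± 0.19, adjusted p = 0.0081). The part of this shift in the excitatory difference was not tested. Over 10 alternatives the layer 6 difference ranged from 0.94 to 1.68.

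Lower values at 6 months were seen for Il34 and Tgfb1, and for Igf1 in layer 4/5 neurons. There the Igf1 difference was −1.10 ± 0.45 (log2, adjusted p = 0.94, ratios of 0.48 and 0.46 in the batches), from 76 UMIs in all. Il34 was at 68.3 and 83.1 against 49.9 and 29.9 CPM in Sst interneurons (−0.86 ± 0.26, adjusted p = 0.97, ratios of 0.73 and 0.36) and at 34.2 and 34.7 against 26.6 and 16.8 CPM in all inhibitory neurons (−0.64 ± 0.23, adjusted p = 0.97). Tgfb1 was at 143.9 and 98.5 against 69.7 and 86.6 CPM in microglia (−0.65 ± 0.25, adjusted p = 0.79, ratios of 0.48 and 0.88). Over 10 alternatives its difference ranged from −0.90 to −0.34. Tgfbr2 in microglia overlapped between the ages (−0.36 ± 0.25, adjusted p = 0.83), and without 3M-2 its difference was −0.62. Csf1r in microglia overlapped between the ages, at 838 and 646 against 688 and 670 CPM.

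**Figure D5:**
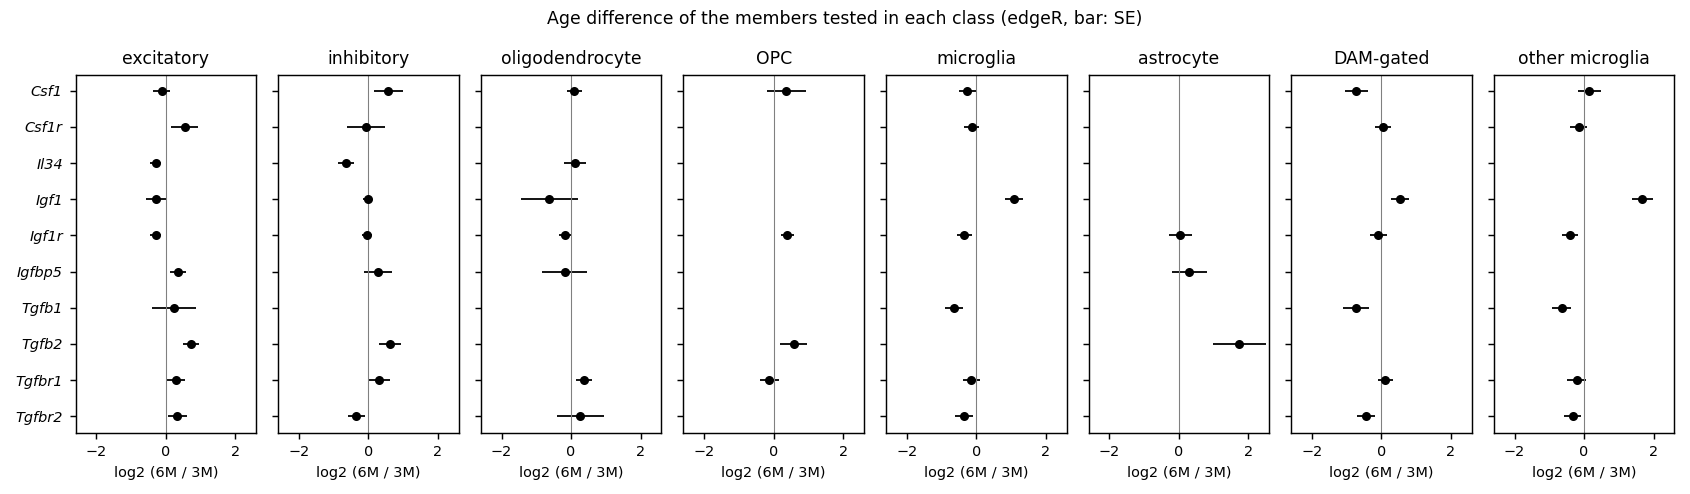
Log2 difference between 6 and 3 months (x axis, positive is higher at 6 months) of each member tested (y axis) in 8 classes, as points with a bar of 1 SE from edgeR. Igf1 in other microglia lies at 1.67 and Tgfb2 in astrocytes at 1.73, and no point was called after adjustment.

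Csf1 in DAM-gated nuclei was at 366.5 and 408.9 CPM at 3 months and 155.4 and 305.3 CPM at 6 months (−0.72 ± 0.33, adjusted p = 0.77). The DAM-gated difference itself was compared between ages, and 0 of 7 members were called (2 at an unadjusted p under 0.05, which 6.11% of all genes reached), against 0.0823% of 9721 genes. The estimates were −0.88 ± 0.42 for Csf1 (adjusted p = 0.81, with −0.13 without 6M-1 and −1.63 without 6M-2), −1.11 ± 0.38 for Igf1 (adjusted p = 0.69) and −0.10 ± 0.19 for Tgfbr2 (adjusted p = 0.98). The age effect of microglia was set against that of each other class, with 0 of 47 member tests called (9 at an unadjusted p under 0.05, a limit that 5.68% of all gene tests reached), while 0.021% of genes were called against excitatory neurons and 0% against each of the other 4. DESeq2 called 0 members in all these comparisons of age as well.

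The count of members called by age depended on the 3-month libraries. Without 3M-2, 13 of 111 member tests were called and without 3M-1 2 were, while leaving out 6M-1 or 6M-2 gave 0. Over all genes there were 7383 calls without 3M-2, 1234 without 3M-1, 124 without 6M-1 and 220 without 6M-2, against 13 with all libraries. In the comparison of age effects between classes, 5 were called without 3M-2 and 3 without 3M-1.

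The genes whose mean levels over the 16 classes and gates were most like each member are given as a description, by Pearson correlation of log2(mean CPM + 1) over points that share the same 4 libraries, of which some gates lie within others. Csf1r was most like Siglech (r = 0.996) and Tgfb1 most like Runx1 (0.997) and Ly86 (0.996), all markers of the microglia gate. Tgfbr1 was most like Bnip2 (0.975) and C1qc (0.974), Tgfbr2 like Usp50 (0.983) and Csf1 like Txndc9 (0.972). Igf1 was most like its antisense neighbour Igf1os (0.951), Tgfb2 like Etv4 (0.938), Igfbp5 like C330002G04Rik (0.920), Il34 like Gm44026 (0.892) and Igf1r like Nr3c1 (0.856). The lowest of these best matches was that of Igf1r, the most evenly spread member.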

How the data were processed

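The deposited matrices hold unnormalized counts of UMIs for each gene in each nucleus, which the authors made with Cell Ranger 7.0.0 (per the file headers) on mm10 (per the submitters' processing notes). The authors then used Seurat; no annotation of nuclei was used here. Gene positions are from GENCODE M21, and promoters from RefSeq, where 8 of the 10 members matched.

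Nuclei were gated by marker genes: a class needed UMIs of at least 3 of its markers, and the share of its list detected had to be the highest, with that of the second list at most 0.5 times as large (for border macrophages, which share genes with microglia, the microglial list was left aside), and a gate within a class at least 2 UMIs and 2 times the next list. DAM gating needed UMIs of 2 of 10 genes. Doublets were not removed; Scrublet (scanpy 1.11.5) called 3.88 to 8.78% per library, and their removal was an alternative. Thresholds were set after marker counts, and before member values, were seen.

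UMIs were summed per library and class (at least 10 nuclei) and fitted with edgeR 4.0.16 in R 4.3.3 (TMM, filterByExpr, glmQLFTest, Benjamini-Hochberg over all genes tested); the mouse was a block in comparisons of classes. The SE is the absolute log2 difference divided by the square root of F. The fits were tested on simulated data. DESeq2 1.42.0, no filter on low counts, leaving out each library, gates, doublets, thinning and blocks were alternatives. Libraries with the same replicate number share a batch number across the ages, and the batches named above are these numbers. Deviations of libraries with the same number correlated at −0.170 to 0.009 over 8 classes, so no pairing was seen. Each sample is 1 mouse.

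The members, gene lists and tests were chosen with earlier results of these data known. Named pathway genes are those called, up to 5 per list and comparison by smallest p, of which 1 is not reported here; the likeness rule took the 3 best correlated genes of those tested, of which 1 or 2 are named. Comparisons of neuronal gates were added after the levels had been seen.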

Additional observations from a re-analysis of the deposited data

Results flagged for a closer look

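The 8656 ungated nuclei, which held 68381071 UMIs, were used in no comparison, yet each of the 10 members had UMIs there above the 3 counts that a count of 0 allows. The counts were 696 for Csf1, 1211 for Csf1r, 1844 for Il34, 1774 for Igf1, 13172 for Igf1r, 525 for Igfbp5, 203 for Tgfb1, 558 for Tgfb2, 4183 for Tgfbr1 and 1266 for Tgfbr2. No cell type was assigned to these nuclei.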

How the results depend on the processing

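Of 417 values of single genes under the alternatives, 392 kept their direction and their side of the threshold, 8 lost the call, 14 gained it and 3 reversed. The reversals were those of Igf1r (-0.013) and Tgfb1 (-0.027) between DAM-gated and other microglia when 1 DAM gene sufficed, and that of the age dependence of Tgfbr2 in DAM-gated nuclei without 3M-1 (0.069, with a range of -0.18 to 0.069 over the libraries left out), none of them called in either form. The share of microglia with a Csf1 UMI, 0.403 points higher at 6 months (7.83, 3.58, 6.08 and 6.14% in the 4 mice, exact permutation p = 1.0), was -1.72 without 3M-2 and ranged to 2.53 when another library was left out, and that of Igf1 ranged from 4.63 to 5.85 points.

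Member tests called by age were 0 with all libraries, 3 without the filter on low counts and 1 with doublet calls left out. For age effects of microglia against other classes they were 0, with 1 without the filter and 0 to 5 when a library was left out. The neuronal gates gave 33, and 7 with the stricter gate, where 4 gates were left. DAM-gated calls were 2 to 4 and class calls 28 to 42. Fitted as pairs, with the batch as a replicate block, the age comparison gave 0 member calls too and 62 genes in place of 13. Crossed pairs, added after seeing the data, gave 0 members and 279 genes. Genes called by age were 164 with DESeq2, 956 without the filter and 53 without doublet calls. Genes called in DAM-gated nuclei were 674, and 93 without the block of mouse, 150 after thinning, 276 with DESeq2, 304 when 1 DAM gene sufficed and 324 to 456 when a library was left out. Over the neuronal gates they were 25845, and 5583 with the stricter gate. For the age dependence of the DAM-gated difference they were 8, and 0 with DESeq2 and 36 without the filter. For age effects of microglia against other classes they were 4, and 10 with DESeq2, 263 without the filter and 1 with the stricter gate. Thinning moved 3 of 10 mean levels by more than the SD between mice, those of Csf1r (815) and Tgfbr1 (2407) in microglia and of Igf1 in inhibitory neurons (167). The largest move in proportion was that of Tgfb2 in astrocytes (62.8 CPM in place of 44.9), within its SD. The causes were not tested. With 2 mice per age, small differences were not detectable.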

Other observations

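Among cells too few to compare, border macrophages (30 nuclei in the 4 libraries together) carried Igf1r at 501 CPM (34 UMIs, 95% exact Poisson interval 347 to 700), Tgfbr2 at 398 CPM (27 UMIs, 262 to 579), Tgfbr1 at 383 CPM (26 UMIs, 250 to 561) and no UMI of Csf1, Il34, Igfbp5 or Tgfb2. T cells (11 nuclei, all at 6 months) held 3 Tgfbr1 and 2 Tgfbr2 UMIs and none of the other 8 genes (interval up to 233 CPM for each). Spiny neurons of striatal type (102 nuclei, counted within the inhibitory class) carried Igf1 at 53.1 CPM (58 UMIs, 40.3 to 68.7), of which 29 UMIs came from 4 nuclei of 6M-2.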
